A study of Mus musculus with 3 samples.

Results

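The nuclei described here are those of GFP-sorted mouse dorsal skin that were most open at 9 melanocyte marker genes, compared between UVB-exposed and resting (telogen) skin. Each nuclear barcode was counted once per condition, by its deeper copy, which left 12348 nuclei in the whole series. A nucleus was kept if 3 or more features lying in the gene bodies of Mlana, Tyrp1, Tyr, Pax3, Kit, Slc45a2, Gpr143, Sox10 and Mitf, or within 2 kb of them, were open, and if these features made up at least 1.5 times the share that they made up over all nuclei pooled. This rule kept 1241 nuclei of the compared conditions, 76 of 2042 telogen nuclei and 1165 of 6553 UVB nuclei. It also kept 686 of 3753 anagen nuclei, which served only as a reference. The openness of the 9 markers chose the nuclei and is given as a description.

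All mice were Dct-rtTA; Tre-H2B-GFP animals that drank doxycycline in their water for 5 days, so that a nuclear GFP was made where the Dct promoter drove its activator. The age is 7 weeks in the treatment text and 8 weeks in the sample characteristics. The telogen nuclei came from 12 pooled mice, for which the labels give no other treatment, and shared a library with the anagen nuclei of 8 mice whose hair cycle had been started by shaving and Nair cream. The UVB nuclei came from a pool of 24 mice whose backs received 2.2 mJ/cm2 of UVB on 3 occasions within a week, with rest days between, processed as 2 technical replicates that the deposited matrix does not separate. Each condition is therefore 1 sample, no test between conditions was possible, and UVB exposure and library cannot be told apart.

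Single-nucleus ATAC-seq marks DNA that a transposase can reach, so an open feature is a stretch of accessible chromatin in 1 nucleus. In telogen skin the melanocyte lineage is held largely as stem cells in the bulge and hair germ of the follicle, where MITF, SOX10 and PAX3 keep lineage identity and pigment genes are little used. UVB is known to draw such cells toward the epidermis and into pigment production, through signals that include the melanocortin, endothelin, KIT and Wnt pathways. The Dct gene encodes dopachrome tautomerase, a melanin synthesis enzyme that is also used by melanocyte stem cells.

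The feature at the annotated start of Dct was the most widely open of all features in both conditions, and the 4 gene-near features that differed most between conditions lay at the starts of Carnmt1, Casp9, Naa35 and Leng8. The 250 bases upstream of these starts follow, 5′ to 3′ on the gene's strand, with those of Ifrd1 and Klf13, the gene-near features with the highest UVB over telogen ratios. Sequences and positions are from RefSeq, build GRCm38.p6, and the window at Dct is chr14:118052247-118052496 on the minus strand. The other windows are chr19:18670509-18670758 (plus) for Carnmt1, chr4:141793362-141793611 (plus) for Casp9, chr13:59585083-59585332 (plus) for Naa35, chr7:4136806-4137055 (plus) for Leng8, chr12:40223190-40223439 (minus) for Ifrd1 and chr7:63938916-63939165 (minus) for Klf13. Capitals mark exact matches on either strand to the E-boxes CATGTG and CACGTG (sites of MITF and related factors), TGANTCA (AP-1), ACAAAG (SOX factors) or CCCTC (part of the CTCF motif).
Dct: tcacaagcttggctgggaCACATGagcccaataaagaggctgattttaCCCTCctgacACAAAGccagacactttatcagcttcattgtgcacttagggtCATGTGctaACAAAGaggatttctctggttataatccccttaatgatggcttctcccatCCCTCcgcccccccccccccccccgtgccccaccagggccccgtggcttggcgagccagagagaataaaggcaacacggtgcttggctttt
Carnmt1: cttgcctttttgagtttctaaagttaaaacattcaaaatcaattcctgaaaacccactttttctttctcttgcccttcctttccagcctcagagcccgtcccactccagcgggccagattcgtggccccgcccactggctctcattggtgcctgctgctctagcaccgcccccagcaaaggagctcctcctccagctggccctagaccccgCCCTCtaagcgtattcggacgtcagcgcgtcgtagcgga
Casp9: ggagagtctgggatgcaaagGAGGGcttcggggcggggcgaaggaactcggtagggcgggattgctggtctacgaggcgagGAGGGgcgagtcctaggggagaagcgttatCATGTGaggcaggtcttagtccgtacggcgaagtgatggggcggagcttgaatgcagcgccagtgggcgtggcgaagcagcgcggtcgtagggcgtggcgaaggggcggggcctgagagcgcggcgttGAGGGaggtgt
Naa35: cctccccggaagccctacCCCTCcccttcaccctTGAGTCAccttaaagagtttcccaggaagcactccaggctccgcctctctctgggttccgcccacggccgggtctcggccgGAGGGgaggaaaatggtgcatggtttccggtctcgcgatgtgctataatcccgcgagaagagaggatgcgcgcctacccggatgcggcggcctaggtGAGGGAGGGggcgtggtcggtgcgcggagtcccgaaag
Leng8: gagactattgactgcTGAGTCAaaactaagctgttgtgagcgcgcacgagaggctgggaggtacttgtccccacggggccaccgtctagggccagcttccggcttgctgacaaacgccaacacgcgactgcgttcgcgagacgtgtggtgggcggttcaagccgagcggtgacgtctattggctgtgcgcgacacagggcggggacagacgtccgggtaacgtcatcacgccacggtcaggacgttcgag
Ifrd1: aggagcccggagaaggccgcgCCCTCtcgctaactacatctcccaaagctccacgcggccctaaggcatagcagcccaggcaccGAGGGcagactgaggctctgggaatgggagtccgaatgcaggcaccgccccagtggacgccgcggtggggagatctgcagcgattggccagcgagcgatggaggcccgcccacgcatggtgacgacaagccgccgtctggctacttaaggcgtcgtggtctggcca
Klf13: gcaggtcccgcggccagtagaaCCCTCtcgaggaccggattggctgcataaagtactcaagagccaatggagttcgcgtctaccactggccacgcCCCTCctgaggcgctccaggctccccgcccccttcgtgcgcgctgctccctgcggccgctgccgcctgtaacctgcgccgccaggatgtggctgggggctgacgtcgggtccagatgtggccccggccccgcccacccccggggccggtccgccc
The stretch before Dct held 2 matches to the first E-box and 2 to the SOX motif, the only SOX matches among the 7 sequences. Of 21237 RefSeq stretches of the same length, 10.1% held the first E-box, 6.63% the other E-box, 6.14% the AP-1 motif, 15.0% the SOX motif and 64.4% the CTCF part. The AP-1 motif reads alike on both strands and was counted once, and 2 of the CTCF-part matches before Naa35 overlap by 1 base. Of the 268 tested gene-near features, 234 matched a RefSeq start. The 4 features with lower UVB levels lay within 1 kb of 6 such starts, of which 3 had the AP-1 motif, 1 the first E-box, 5 the CTCF part and 0 the other motifs. These 6 starts belong to 4 genes, as Naa35 and Leng8 have 2 starts each. The 3 starts with the AP-1 motif all belong to these 2 genes, so they are not separate members. Among the 298 starts near any tested gene-near feature, 4.03% had the AP-1 motif, 4.03% the first E-box, 8.72% the other E-box, 8.05% the SOX motif and 81.9% the CTCF part. A match is a description of the letters and not of binding.

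The marker rule kept a larger share of UVB nuclei than of telogen nuclei. It kept 3.72% of telogen nuclei (exact binomial 95% interval 2.94 to 4.64%) and 17.8% of UVB nuclei (16.9 to 18.7%). The names of nuclei carry a tag number that the labels do not explain, and the share moved widely with it. Over the 10 telogen tag numbers it ran from 0 to 8.8% with a median of 2.29%, and over the 15 UVB tag numbers with 50 or more nuclei from 0 to 40.5% with a median of 19.7%. Tag number 10 alone gave 33 of the 76 telogen nuclei and 46.8% of their open calls, while the tag numbers 1 to 7 together gave 17 nuclei, number 8 gave 9 and number 9 gave 17. UVB tag number 19 was the largest, and the rule kept 8.18% of its 2934 nuclei. The kept telogen and UVB nuclei shared 2 barcodes.

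**Figure D1:**
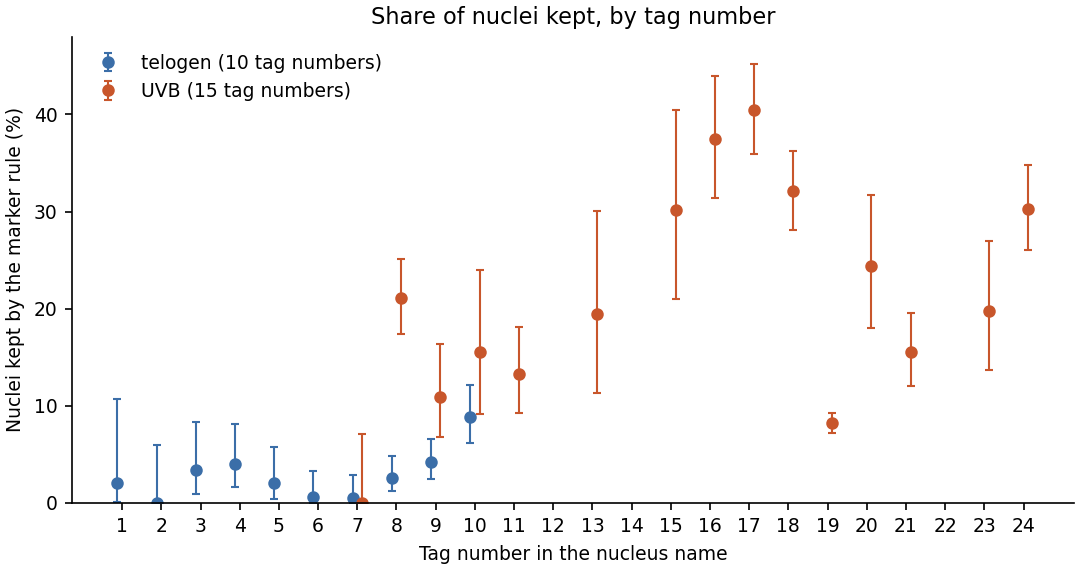
Share of nuclei kept by the marker rule (percent, y axis) at each tag number (x axis), with exact binomial 95% intervals, for the 10 telogen tag numbers and the 15 UVB tag numbers with 50 or more nuclei. Telogen shares lie between 0 and 8.8%, and UVB shares between 0 and 40.5%.

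At the edge of the rule, 34 kept telogen nuclei (44.7%) and 316 kept UVB nuclei (27.1%) had exactly 3 open marker features. A further 71 telogen and 427 UVB nuclei were 1 feature short of the rule, and 35 telogen and 284 UVB nuclei had enough features but too low a share. A nucleus with a feature above 0 counts here as 1 open call, and a level is the number of calls per 1000000 calls of the kept nuclei of a condition, or of its nuclei not kept where these are named. The kept nuclei gave 90023 calls in telogen and 1866108 in UVB. A kept nucleus had a median of 1011.5 open features in telogen (368 to 4263) and 1326 in UVB (295 to 6680). At this depth 47667 of the 315694 features (15.1%) had any call in the telogen nuclei, against 205732 (65.2%) in the UVB nuclei.

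The label of the nuclei was checked on genes that the rule did not use. Dct had a level of 667 in the kept telogen nuclei and 667 in the kept UVB nuclei over its gene body and 2 kb at each end, from 60 and 1245 calls. In the nuclei not kept it stood at 85.1 in telogen and 273 in UVB. Kept nuclei were thus 7.83-fold (5.80 to 10.4) above the rest in telogen and 2.44-fold (2.27 to 2.62) in UVB. Pmel, which encodes the fibril protein of the melanosome, was 1.87-fold above the rest in telogen (1.25 to 2.71) and 1.88-fold in UVB (1.71 to 2.05). Trpm1, which encodes a cation channel of melanocytes, was 1.28-fold above the rest in telogen (0.654 to 2.27), an interval that includes 1, and 1.68-fold in UVB (1.50 to 1.88). The pigment genes were therefore set apart to different degrees, and Oca2 was not (1.11 in UVB, 0.886 to 1.38). The transactivator carries the Dct promoter, and how many calls at Dct come from the transgene was not tested.

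The pigment transporter genes Oca2 and Slc24a5, named after their values were seen, had no call in the kept telogen nuclei. Oca2, a melanosomal anion transporter gene, had 0 calls in telogen and 106 in UVB, a level of 56.8, while the 0 allows a telogen level of up to 33.3 and an open window in up to 3.95% of nuclei. Its UVB level was 1.70 times that bound, with an interval (0.568 to 8.40) that included 1. Slc24a5, a melanosomal cation exchanger gene, had 0 calls in telogen and 89 in UVB, a level of 47.7. That level was 1.43 times the same bound, with an interval (0.474 to 7.07) that also included 1. In the kept anagen nuclei the same genes stood at 435 and 109.

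The 9 markers, whose sum the rule used, differed little between the conditions. Their summed level was 3710.2 in telogen and 3455 in UVB, and their ratios ran from 0.667 for Gpr143, from 6 and 83 calls, to 1.27 for Tyr, from 13 and 342 calls. Pax3 and Mitf, both transcription factor genes, gave most of the calls. Pax3 had a level of 1055 in telogen and 1074 in UVB, and Mitf 1144 and 949. In the nuclei not kept, the summed marker level was 277 in telogen and 573 in UVB, so the nuclei left out were more open at the markers in UVB.

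Markers of other cell types also had calls in the kept nuclei, and not all of their lists were lower there than in the nuclei not kept. The summed level of 12 keratinocyte genes was 255 in telogen and 283 in UVB, against 728 and 609 in the nuclei not kept. The 10 fibroblast genes stood at 267 in telogen and 145 in UVB, a ratio of 0.545 (0.358 to 0.865), against 488 and 695. By tag number they ran from 59.7 to 507 in the 4 telogen groups and from 39.5 to 286 over 12 UVB tag numbers, with 2 of the 4 telogen groups above every UVB tag number. Of the other lists, the telogen and UVB levels were 122 and 108 for 11 endothelial genes, 222 and 141 for 10 myeloid and Langerhans genes, 77.8 and 34.3 for 7 measured T cell genes, 633 and 646 for 10 Schwann and glial genes, 233 and 320 for 10 pericyte and smooth muscle genes, 156 and 185 for 9 skeletal muscle genes, and 144 and 127 for 7 adipocyte genes. The intervals of these 7 ratios and of the keratinocyte ratio included 1. The nuclei not kept stood at 461 in telogen and 269 in UVB for the endothelial list, 396 and 223 for the myeloid and Langerhans list and 94.4 and 59.5 for the T cell list. They stood close to the kept nuclei for the other lists, at 653 and 673 for Schwann and glial genes, 255 and 331 for pericyte and smooth muscle genes, 186 and 197 for skeletal muscle genes and 128 and 102 for adipocyte genes. In the kept telogen nuclei 4 of 12 keratinocyte genes (Krt5 among them), 4 of 10 fibroblast genes (Pdgfra, Dcn), 4 of 11 endothelial genes (Cdh5), 3 of 10 myeloid and Langerhans genes (Itgam), 3 of 7 T cell genes (Cd3e), 5 of 10 pericyte and smooth muscle genes (Pdgfrb), 7 of 9 skeletal muscle genes (Acta1), 4 of 7 adipocyte genes (Adipoq) and 0 of 10 Schwann and glial genes had 0 calls. A count of 0 allows a level of up to 33.3 there, or an open window in up to 3.95% of nuclei. The part that other cell types had in the results below was not tested.

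Single features were compared where the mean of both levels was at least 111, which is 10 telogen calls. This left 317 of the 315694 features, 268 gene-near ones, within 1 kb of an annotated gene start, and 49 distal ones. A feature or gene counted as lower or higher after UVB if its UVB and telogen levels differed by 2-fold or more and the exact conditional binomial 95% interval of their ratio left out 1. The interval covers counting error only, not the spread between mice. Of the 317 features, 5 were lower after UVB (1.58%) and 0 were higher (0%). Among gene-near features 4 were lower (1.49%) and 0 higher (0%), and among distal features 1 was lower (2.04%) and 0 higher (0%). All 5 had UVB levels below the filter, from 64.3 to 87.3, and passed it through their telogen levels, which favours lower calls. With the filter set on the anagen level in its place, 1 feature was tested and 0 were lower. These counts describe 2 libraries and have no replicate check, and at 10 telogen calls only ratios of 2.1-fold higher or 2-fold lower could leave out 1. Without telogen tag number 10, 3 features passed the filter and 0 met the rule, and with nuclei thinned to 500 open features each, 2 passed and 1 was lower.

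**Figure D2:**
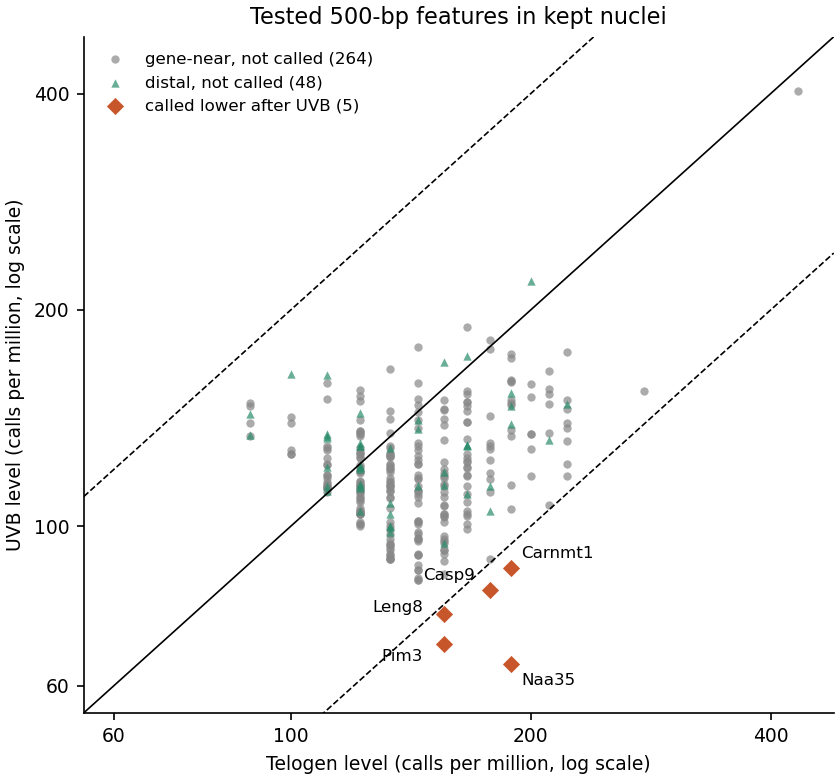
Telogen level (x axis) against UVB level (y axis) of the 317 tested features in the kept nuclei, both in calls per 1000000 calls on log scales, with the line of equal levels and dashed lines at 2-fold. The 5 features that met the rule, drawn as diamonds, lie below the lower dashed line, and no feature lies above the upper one.

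The Dct start had the highest level of any feature in both conditions and did not differ beyond counting error. This feature, chr14:118052265-118052765, was open in 39 of the 76 telogen nuclei (51.3%) and in 752 of the 1165 UVB nuclei (64.5%). Its level was 433 in telogen and 403 in UVB, a ratio of 0.930 (0.674 to 1.32). The telogen groups spread more than the UVB ones, with levels of 184 in tag numbers 1 to 7, 317 in number 8, 776 in number 9 and 451 in number 10, while the 12 UVB tag numbers with 20 or more kept nuclei ran from 338 to 543. Telogen thus lay both below and above the UVB range. Among nuclei not kept the same feature was 4.87-fold higher in UVB than in telogen (3.98 to 6.03), at 178 against 36.5.

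The Naa35 start was the feature with the clearest lower level after UVB. Naa35 encodes an auxiliary subunit of the NatC complex, which acetylates the N-termini of proteins. The feature chr13:59585002-59585502 had 17 telogen calls and 120 UVB calls, levels of 189 and 64.3, and a ratio of 0.341 (0.204 to 0.604). Its levels were 138, 211, 239 and 190.0 in the telogen groups of tag numbers 1 to 7, 8, 9 and 10, and ran from 33.9 to 100.0 over the UVB tag numbers. All 4 telogen groups lay above every UVB tag number, although the groups rested on 3, 2, 4 and 8 calls. Outside the kept nuclei its ratio was 0.931 (0.773 to 1.12).

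The other 4 features showed more overlap between tag numbers. Carnmt1, which encodes a carnosine methyltransferase, had 17 telogen and 163 UVB calls at its start (chr19:18670470-18670970), levels of 189 and 87.3 and a ratio of 0.463 (0.280 to 0.813). Its telogen groups were at 92.1, 317, 239 and 190.0 and its UVB tag numbers between 47.7 and 118, so 3 of the 4 groups lay above all of them. Casp9 encodes the initiator caspase of the mitochondrial death pathway. Its start feature (chr4:141793348-141793848) had 16 and 152 calls, levels of 178 and 81.5 and a ratio of 0.458 (0.273 to 0.822). Its telogen groups were at 138, 0, 179 and 238, against 40.3 to 138 over the UVB tag numbers.

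The start of Leng8 and an element at Pim3 completed the set. Leng8 (chr7:4136748-4137248) had 14 and 141 calls, levels of 156 and 75.6 and a ratio of 0.486 (0.280 to 0.912), which turned to 1.29 when the marker share had to be 3 times that of all nuclei. Its telogen groups were at 138, 0, 119 and 214 and its UVB tag numbers between 0 and 121. The single distal feature, chr15:88863730-88864230, lies inside the body of Pim3, a PIM family kinase gene, 1786 bp from the nearest gene start. It had 14 and 128 calls, levels of 156 and 68.6 and a ratio of 0.441 (0.253 to 0.830), with telogen groups at 92.1, 317, 59.7 and 190.0 and UVB tag numbers between 39.5 and 100.0. The ratios of Carnmt1, Casp9, Leng8 and Pim3 lay between 0.917 and 1.21 in the nuclei not kept.

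**Figure D3:**
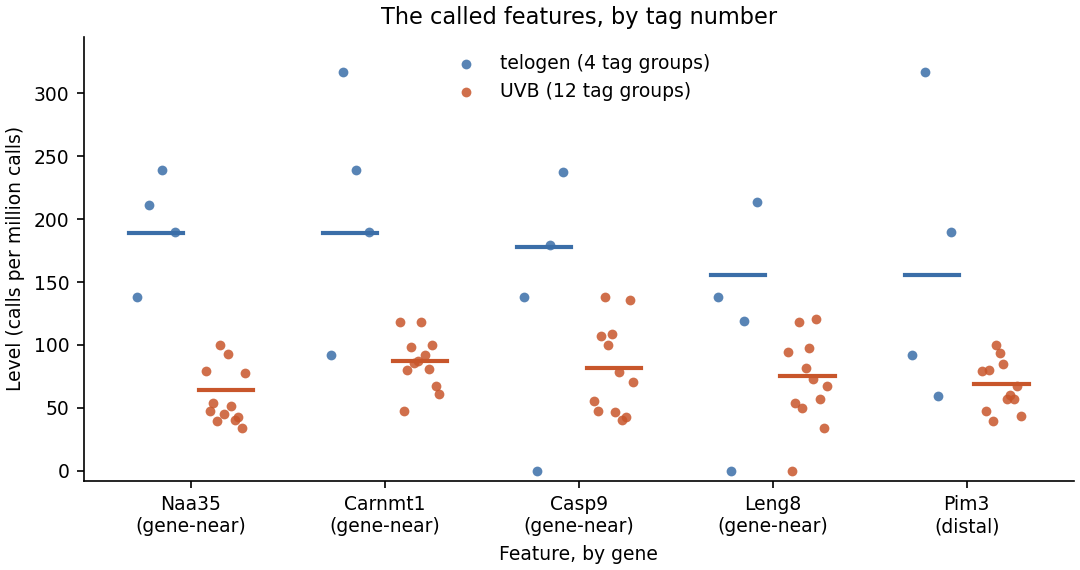
Levels (calls per 1000000 calls, y axis) of the 5 features that met the rule, by tag group, for 4 telogen groups (tag numbers 1 to 7 pooled, 8, 9 and 10) and 12 UVB tag numbers, with bars at the level of all kept nuclei of a condition. The telogen points of Naa35 all lie above its UVB points, while those of Casp9 and Leng8 include a group at 0.

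The gene-near features next in order had intervals that left out 1 but ratios of less than 2-fold. They lay at Cyth2 (0.508), Cic (0.556), Mplkip and Sugct (0.528), Mllt10 (0.507), Evi5l (0.550) and Sap130 (0.559). Cic encodes the repressor Capicua, and its feature, 471 bp from the start, was open in 32.9% of telogen and 24.7% of UVB nuclei. These 6 features had ratios from 0.947 to 1.26 in the nuclei not kept. At the other end, Ifrd1, a transcriptional coregulator gene, had 8 telogen and 277 UVB calls, levels of 88.9 and 148 and a ratio of 1.67 (0.836 to 3.91). Klf13, a Krüppel-like factor gene, had 8 and 274 calls and a ratio of 1.65 (0.827 to 3.87). The intervals of both included 1, and so did those of the next 8 features, at Aasdhppt and Kbtbd3, Birc6, Fem1c, Fam160a2, Mknk2, Chchd7 and Plag1, Add3 and Btg1.

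Gene-near and distal features took nearly the same shares of all calls in both conditions. Gene-near features held 46.5% of telogen calls (46.2 to 46.9%) and 45.7% of UVB calls (45.6 to 45.7%), and the telogen groups, from 42.6 to 48.3%, lay within the UVB tag numbers, from 42.3 to 52.5%. Distal features inside gene bodies held 28.6% and 29.6%, and those outside any gene body 24.9% and 24.8%. In the kept anagen nuclei, which share a library with telogen, gene-near features held 37.1% and distal features inside gene bodies 41.6%. The median log2 ratio of UVB over telogen was -0.26 over the 268 tested gene-near features and -0.09 over the 49 distal ones. Features entered partly through their sparse telogen calls, which favours ratios under 1. With no filter the medians were -0.34 and -0.91, in the opposite order, so they describe the filtered sets and not the regions. The interval included 1 for 257 of the 268 and 48 of the 49.

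The tested distal features included many whose levels were higher in the kept nuclei than in the rest. Of the 49, 27 were 2-fold or more above the nuclei not kept in telogen and in UVB, against 2 of the 268 gene-near features, at Dct and Sh3tc2. Their UVB over telogen ratios in the kept nuclei ran from 0.625 to 1.63 with a median of 0.996, and all 27 intervals included 1. Among nuclei not kept, the ratios of the same 27 ran from 1.89 to 5.35 with a median of 3.84. Since the kept nuclei were chosen by marker openness, and 2 of the 27 lie in marker windows, the fold over the rest is a description. Choosing features high in both conditions favours ratios near 1, and the intervals were too wide to show that the levels were alike.

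Among the 27, 4 were picked for description after their nearest genes were seen, and the others lay near genes such as Tmco5, Nebl and Acvr2a. One at chr14:103899113-103899613, 54605 bp from the gene body of Ednrb, the endothelin receptor of melanoblasts, had levels of 111 in telogen and 133 in UVB. Its ratio was 1.20 (0.642 to 2.54) in the kept nuclei and 5.35 in the rest. An element 163984 bp from Foxd3, a neural crest transcription factor gene, stood at 88.9 and 134, a ratio of 1.51 (0.753 to 3.53), against 4.36 in the rest. The other 2 lie in marker windows that the rule used. An element inside Mitf, at chr6:97981670-97982170, stood at 167 and 173 and was 21.2-fold above the rest in telogen and 6.11-fold in UVB. An element inside Pax3, at chr1:78189474-78189974, stood at 211 and 132, a ratio of 0.625 (0.392 to 1.06), with telogen groups from 166 to 358 and UVB tag numbers from 101 to 238. Distance to a gene does not show which gene an element serves.

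The highest ratios among distal features were at elements inside Dlgap1 and Pkhd1. Dlgap1 encodes a scaffold protein of synapses, and its element stood at 100.0 in telogen and 163 in UVB, a ratio of 1.63 (0.847 to 3.60). Pkhd1 encodes fibrocystin, a protein of primary cilia, and its element stood at 88.9 and 143, a ratio of 1.61 (0.805 to 3.77). Both were also higher in the nuclei not kept, by 3.66-fold and 3.87-fold. An element inside Lbh stood at 111 and 162, a ratio of 1.46 (0.784 to 3.08), and 3.08 in the rest. The intervals of all 10 highest distal features included 1 in the kept nuclei.

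Features chosen on the anagen nuclei alone gave a comparison that the telogen filter does not set. Outside the marker windows, 9941 features had 20 or more calls in the kept anagen nuclei and a level at least 4-fold above that of the anagen nuclei not kept. Their summed level was 72015 in telogen and 87029 in UVB, a ratio of 1.21 (1.18 to 1.24). Of the 6483 telogen calls 3880 were in tag number 10. Many calls can come from 1 nucleus, so the intervals of these sums are too narrow and do not cover the spread between tag numbers. The ratio was 1.09 (0.976 to 1.22) for the 422 gene-near ones, 1.21 (1.17 to 1.25) for the 7200 inside gene bodies and 1.22 (1.17 to 1.27) for the 2319 outside. The other 22041 features with 20 or more anagen calls had a ratio of 1.02. The telogen groups ran from 39190 in tag numbers 1 to 7 through 58792 and 71412 to 92155 in tag number 10, and the UVB tag numbers from 70615 to 113868. Telogen tag number 10 thus lay within the UVB range, as did number 9, while the other 2 groups lay below it. Outside the kept nuclei the ratio was 2.20 (2.18 to 2.23).

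Genes were compared over their body and 2 kb at each end, with the 9 markers left out. The filter of 10 telogen calls left 2192 genes, whose median log2 ratio was -0.07. After UVB 50 genes were lower (2.28%) and 28 were higher (1.28%). Most of the 50 had UVB levels under the filter of 111, such as Col27a1 at 47.2. Most of the 28 had telogen levels under it, such as Dag1 at 66.6, with a median of 8 telogen calls. Such genes passed the filter through the condition where they were higher, which favours calls. Scaled by the calls near 18 housekeeping genes in place of all calls, which moves the median of all genes to -0.20, the same rule gave 77 lower and 7 higher. Without telogen tag number 10, 11 genes were lower and 13 higher, of which 1 and 1 were among the 50 and the 28. With the filter set on the anagen level, which telogen does not enter, 20 of 2002 genes were lower and 46 higher, so the balance of directions turned. The calls of a gene often came from fewer nuclei, as several of its features can be open in 1 nucleus, so the intervals are too narrow. All 4 telogen groups lay above every UVB tag number for 4 of the 50 lower genes (Hivep3, Malsu1, Cavin1 and Naa35) and below for 2 of the 28 higher ones (Dpysl3 and Yy1), all 6 named after their values were seen. The same share over all 2192 tested genes was not computed. The 50 and the 28 were chosen for a difference in the same calls, which favours such separation. Of the calls of Malsu1, 70.5% lay in features shared with another gene.

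The lowest gene was Col27a1, a fibrillar collagen gene, with 16 telogen calls in 8 nuclei and 88 UVB calls in 70 nuclei. Its levels were 178 and 47.2, a ratio of 0.265 (0.155 to 0.484). The telogen groups stood at 461, 211, 119 and 47.5 from tag numbers 1 to 7 to number 10, and the UVB tag numbers between 0 and 95.4. The first telogen group, 17 nuclei, gave 10 of the 16 calls. Col27a1 was higher in UVB in the nuclei not kept, with a ratio of 1.70 (1.48 to 1.97).

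Zfp423, a zinc-finger transcription factor gene of mesenchymal and fat precursors, followed with levels of 178 and 47.7 and a ratio of 0.268 (0.156 to 0.490), which turned to 1.59 when the marker share had to be 3 times that of all nuclei. Its 16 telogen calls came from 8 nuclei, and the telogen groups ran from 0 to 529. The fibroblast markers were highest in the telogen groups that gave most calls of Col27a1 and Zfp423. They stood at 507 in tag numbers 1 to 7 and 317 in number 8, against 59.7 and 214 in numbers 9 and 10. This was not particular to fibroblast markers. The keratinocyte list stood at 322, 634, 239 and 143 in the same order, and the endothelial list at 184, 317, 59.7 and 71.3. The myeloid and Langerhans and the adipocyte lists were also highest in the first 2 groups. The T cell, Schwann and glial, pericyte and smooth muscle, and skeletal muscle lists were not. The part of other cell types in both results was not tested. Mbp, which encodes myelin basic protein, had levels of 200.0 and 62.2 and a ratio of 0.311 (0.188 to 0.543), and in the rest its ratio was 0.789. The summed Schwann and glial list, of which Mbp is 1 member, stood at 633 in telogen and 646 in UVB. Tns1, which encodes the focal adhesion protein tensin, stood at 267 and 90.6, a ratio of 0.340 (0.221 to 0.545).

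Cavin1, which encodes a coat protein of caveolae, was the lower gene among the first 10 whose tag numbers did not overlap. Its telogen groups stood at 230, 423, 179 and 238 and its UVB tag numbers between 26.8 and 158, from 22 and 179 calls, with a ratio of 0.393 (0.251 to 0.642). As said above, how often tested genes separate in this way was not computed. Ttyh1 had a ratio of 0.384 (0.267 to 0.570), but 56.8% of its calls lay in features shared with another gene, and its window reaches the Leng8 start. Tada3, which encodes an adaptor of histone acetyltransferase complexes, had a ratio of 0.399 (0.244 to 0.692), and 99.4% of its calls were shared in this way. Mcrs1 (0.338), Dhx35 (0.386) and Ece1 (0.376), the last encoding an endothelin-converting enzyme, completed the 10 lowest. The ratio of Ece1 turned to 1.24 when 5 or more open marker features were asked for. Outside the kept nuclei, the 10 had ratios between 0.703 and 1.70.

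Among the higher genes the interval was farthest from 1 for Fancc, a gene of the Fanconi anaemia DNA repair pathway. It had 12 telogen calls and 616 UVB calls, levels of 133 and 330.1 and a ratio of 2.48 (1.41 to 4.82). Its telogen groups stood at 46.1, 317, 0 and 190.0 and its UVB tag numbers between 271 and 524, and 56.2% of its calls lay in features shared with another gene. Megf10, which encodes an engulfment receptor, had 17 and 762 calls, levels of 189 and 408 and a ratio of 2.16 (1.34 to 3.73). Its ratio in the nuclei not kept was larger, at 3.93 (3.24 to 4.81).

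Dpysl3, which encodes a cytoskeletal protein of growing axons, had non-overlapping tag numbers, a trait whose share over all tested genes was not computed. Its telogen groups stood at 92.1, 106, 119 and 119 and its UVB tag numbers between 169 and 330.0, from 10 and 477 calls, with a ratio of 2.30 (1.24 to 4.83). Dag1, which encodes the matrix receptor dystroglycan, had a ratio of 2.65 (1.20 to 7.26), with all 6 telogen calls in tag number 10. Atrnl1 (2.63), Smyd3 (2.01), which encodes a lysine methyltransferase, and Arhgef10l (2.11) were also higher. Pkhd1 (1.84), Plcb4 (1.95), which encodes a phospholipase C, and Prickle1 (1.79), a planar cell polarity gene, ranked among the 10 highest by their intervals without reaching 2-fold. In the rest all 10 had ratios above 1, from 1.14 to 3.93, as had 1255 of all 2192 tested genes.

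**Figure D4:**
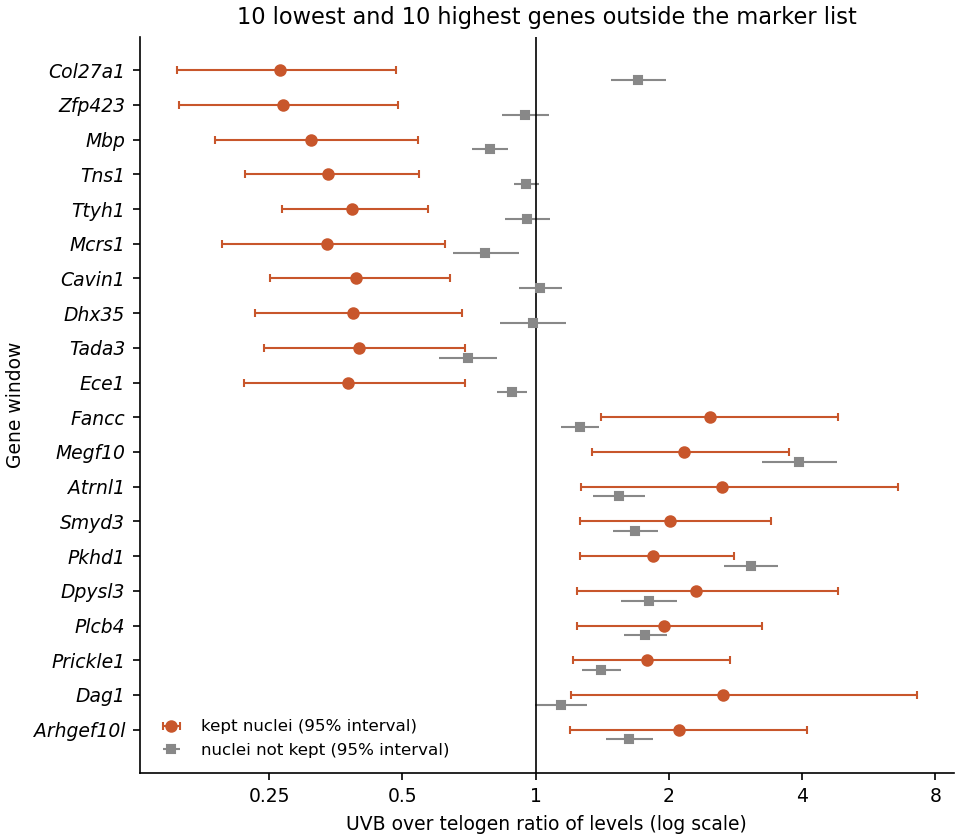
UVB over telogen ratio of levels (x axis, log scale) for the 10 lowest and 10 highest genes (y axis) in the kept nuclei, with 95% intervals, and for the nuclei not kept. The kept ratios run from 0.265 for Col27a1 to 2.65 for Dag1, and the squares of the nuclei not kept lie above 1 for the 10 highest genes.

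The 28 higher and 50 lower genes are described here by length and region, with no test of the difference, and few of them met the rule again without telogen tag number 10. The 28 higher genes had a median length of 172832 bp and took a median of 15.97% of their calls from gene-near features, and 20 of them (71.4%) were 100 kb or longer. The 50 lower genes had a median length of 49178 bp and took 59.7% of their calls near a start, close to the 58394 bp and 63.1% of all 2192 tested genes, of which 35.2% were 100 kb or longer. In the nuclei not kept, 25 of the 28 had ratios above 1 with a median of 1.43, and 33 of the 50 had ratios under 1 with a median of 0.935. Over all 2192 tested genes, 1255 had ratios above 1 in the nuclei not kept and 937 under 1, with a median of 1.04.

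Of the pigment and melanosome genes, which make and carry melanin, 10 of 23 were tested and 0 met the rule in either direction. Over all tested genes 2.28% were lower and 1.28% higher, so a count of 0 among so few members is near that share. Their median log2 ratio was 0.13, against -0.07 over all tested genes, and the summed ratio was 1.12 (0.995 to 1.27). It was 1.105 (0.935 to 1.31) in gene-near features and 1.15 (0.958 to 1.38) in distal ones. Dct had a ratio of 1.00 (0.772 to 1.32) and Pmel one of 1.19 (0.825 to 1.77). The telogen groups summed to 2395, 2009, 3881 and 3183 and the UVB tag numbers to between 2813 and 4047, so 2 of the 4 groups lay below that range.

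The lineage regulators and receptors outside the marker list had the highest median of the lists with 5 or more tested members. Of 21 genes 9 were tested and 0 met the rule, against 2.28% lower and 1.28% higher over all tested genes. The median log2 ratio was 0.36. The summed ratio was 1.26 (1.13 to 1.42), and it was 1.28 (1.03 to 1.61) in gene-near and 1.26 (1.11 to 1.44) in distal features. Nfia, a nuclear factor I gene, stood at 600 in telogen and 741 in UVB, a ratio of 1.24 (0.941 to 1.65), and Sox6, a SOX repressor gene, at 589 and 670, a ratio of 1.14 (0.865 to 1.53). In the nuclei not kept the summed ratio was also 1.26 (1.22 to 1.30). The telogen groups stood at 2533, 4970, 3702 and 3895 and the UVB tag numbers between 4045 and 5702, with 3 groups below all of them.

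Mc1r and Ednrb, receptor genes of UVB-linked signals, were too sparse in telogen to be tested. Mc1r, the melanocortin receptor gene, had 1 telogen call and 136 UVB calls, a ratio of 6.56 (1.16 to 261). Ednrb had 4 and 195 calls, a ratio of 2.35 (0.904 to 8.72). Both were named after their values were seen. Other untested lineage regulators and receptors lay on both sides of 1, such as Tbx2 at 2.02 (0.850 to 6.28) and Tfap2b at 0.583 (0.316 to 1.20). The ratios of Mc1r and Ednrb in the nuclei not kept were 1.95 and 1.08.

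The immediate early and AP-1 genes, which respond fast to stress and growth signals, were the list with the most tested members. Of the 17 tested of 23 genes, 1 was lower and 0 were higher, against 2.28% lower and 1.28% higher over all tested genes, with a median log2 ratio of -0.18 and a summed ratio of 0.898 (0.817 to 0.990). The lower one was Klf2, a Krüppel-like factor gene, with levels of 189 and 92.7 and a ratio of 0.491 (0.298 to 0.862), which turned to 1.71 with nuclei thinned to 500 open features. Its ratio in the nuclei not kept was 0.559, and the summed ratio of the list there was 0.869 (0.852 to 0.887). The telogen groups summed to 4283, 6345, 5433 and 4798 and the UVB tag numbers to between 3470 and 5335, with 2 telogen groups above them.

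**Figure D5:**
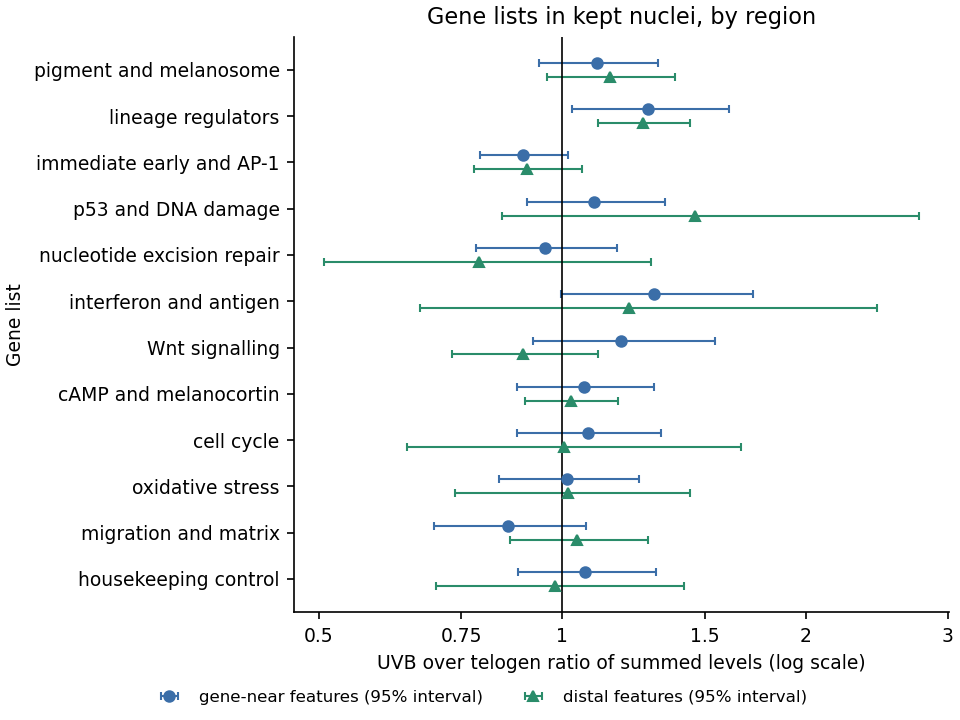
UVB over telogen ratio of the summed levels of 12 gene lists (x axis, log scale), for gene-near and distal features of the kept nuclei, with 95% intervals. The lineage regulators lie at 1.28 and 1.26 with intervals above 1 in both kinds of region, and the immediate early and AP-1 list at 0.894 and 0.905 with intervals that include 1.

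The damage and defence lists had few tested members. Of the p53 and DNA damage genes 3 of 24 were tested, with Btg2, an antiproliferative p53 target, at a ratio of 0.701 (0.416 to 1.27) and Plk2, a polo-like kinase gene, at 0.761 (0.435 to 1.45), and the summed ratio was 1.13 (0.946 to 1.37). Of the nucleotide excision repair genes, which remove UV photoproducts, 2 of 24 were tested, Pcna at 1.33 (0.711 to 2.80) and Rad23b at 1.20 (0.642 to 2.54), and the summed ratio was 0.925 (0.773 to 1.11). Of the oxidative stress genes 3 of 20 were tested, with Nfe2l2, the NRF2 gene, at 0.788 (0.545 to 1.18) and Gpx4, a peroxidase gene, at 0.922 (0.575 to 1.57), and the summed ratio was 1.02 (0.859 to 1.21). No member of these 3 lists met the rule, against 2.28% lower and 1.28% higher over all tested genes, and their summed intervals included 1.

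The 25 interferon and antigen presentation genes had 0 tested members. Their summed level was 755 in telogen and 970 in UVB, a ratio of 1.28 (1.01 to 1.66), from 68 and 1811 calls. The telogen groups stood at 783, 529, 836 and 760.0 and the UVB tag numbers between 857 and 1104, so all 4 groups lay below all of them. Tap1, a peptide transporter gene of class I presentation, had a ratio of 1.01 (0.520 to 2.24) and Irf2, an interferon regulatory factor gene, one of 1.39 (0.660 to 3.49). In the nuclei not kept the summed ratio was 0.859 (0.824 to 0.896). Myeloid and Langerhans markers stood at 222 in telogen and 141 in UVB in the kept nuclei, a ratio of 0.634 (0.402 to 1.06) from 20 telogen calls. The part of such nuclei in the summed level was not tested.

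The remaining lists had summed ratios between 0.958 and 1.06, and no member met the rule, against 2.28% lower and 1.28% higher over all tested genes. Of the Wnt genes 5 of 26 were tested (median log2 ratio 0.09), with Lgr4, an R-spondin receptor gene, at 0.805 (0.507 to 1.35) and Fzd7, a Frizzled receptor gene, at 0.744 (0.468 to 1.25). Of the cAMP and melanocortin genes 12 of 23 were tested (median -0.10), with the phosphodiesterase genes Pde4d at 0.964 (0.780 to 1.21) and Pde4b at 0.898 (0.632 to 1.32). Of the migration, adhesion and matrix genes 7 of 24 were tested (median -0.22), with Cdh1, the E-cadherin gene, at 1.29 (0.858 to 2.03) and Cd44, a hyaluronan receptor gene, at 1.36 (0.851 to 2.31). Of the cell cycle genes 2 of 22 were tested, with Cdk2 at 1.18 (0.816 to 1.78). Of the housekeeping genes 6 of 18 were tested (median 0.08), with Actb at 0.717 (0.489 to 1.09) and Rpl13a at 1.05 (0.630 to 1.91).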

How the data were processed

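Single-nucleus ATAC-seq was measured in sorted GFP-positive nuclei of 3 conditions. The values are counts per 500 bp feature and nucleus in 1 matrix per condition, as deposited by the authors. Bowtie2, SAMtools and MACS2 with mm10 (GRCm38) are named, per the submitters' processing notes, while their versions and any filters were not given in the sources used here. The deposited counts reached at most 4 and 61.1% of entries were 2, so a value above 0 was taken as 1 open call.

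Of the deposited barcodes 21.0% in telogen and 0.937% in UVB were second copies, and the deeper copy was used. The marker share over all nuclei was 0.120% on 367 features, so the threshold was 0.179%. Features were placed with RefSeq GRCm38.p6 genes. The start came from the strand for 17491 genes, and both ends were used for the 4392 without one. Where 2 starts are annotated (Naa35, Leng8), the sequence is that before the more upstream one. Exons and introns were not annotated. No doublet caller was run, and an alternative left out nuclei above 3 times the median. Exact 95% intervals were computed, conditional binomial for ratios of levels and binomial (Clopper-Pearson) for shares, and a count of 0 was bounded at 3 calls. Intervals and bounds cover counting error only. Calls summed over several features can come from the same nucleus, so intervals of genes, lists, summed features and shares of calls are too narrow. With 1 sample per condition no test was made. Features and genes named are the 10 with the lowest upper bound and the 10 with the highest lower bound, by class, and list members named are those that met the rule or, where none did, the 2 with the highest mean level, unless said otherwise. Of 358 listed genes 357 matched. The members and lists were chosen with earlier results of these data known. The comparison was tested on simulated data. Scripts ran in Python 3.11.15 with scipy 1.17.1, numpy 2.4.6, pandas 2.3.3 and matplotlib 3.10.9.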

Additional observations from a re-analysis of the deposited data

How the results depend on the processing

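The counts of single features and genes that met the rule (5 features lower, 4 of them gene-near and 1 distal, with 0 higher, and 50 genes lower and 28 higher) moved with the filter and with the nuclei used. Of 1312 ratios of named features and genes over 16 settings, 1281 stayed inside their 95% interval, 27 left it and 4 reversed. Only features and genes that met the rule could count as reversed. Ratios of others also crossed 1, such as the Lmna feature (0.610, up to 1.67) and Irf2 (1.39, down to 0.737). Tap1 stayed on its side of 1 in 8 of 16 settings. With deposited counts in place of open calls, 2 features were higher, 1 gene-near and 1 distal. Scaled by calls near housekeeping genes, 9 features were lower (8 gene-near), with 77 genes lower and 7 higher, and the immediate early median was -0.32. With a minimum of 5 telogen calls, 72 of 2668 tested features were lower (50 gene-near, 22 distal) and 6 higher (1 and 5). Of 5631 tested genes, 174 were lower and 77 higher. With a minimum of 20, only 1 feature was tested and 0 were lower (0 gene-near, 0 distal). Of 450 tested genes, 1 was lower and 3 higher. With no filter, 520 of 32697 tested features were lower (229 and 291) and 23 higher (9 and 14). Of 12774 tested genes, 351 were lower and 102 higher. With every barcode kept, 104 of 1611 tested features were lower (83 and 21) and 10 higher (4 and 6). Of 4368 tested genes, 174 were lower and 112 higher.

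With a marker share of 3 times, 1 feature was tested and 0 were lower (0 and 0), and of 260 tested genes 11 were lower and 7 higher. List medians were then 0.62 for pigment, 0.15 for immediate early, -0.19 for Wnt, -0.32 for cAMP and 0.042 for migration genes. The Leng8 feature (1.29) and Zfp423 (1.59) reversed. With 5 or more marker features, 1 feature was tested and 0 were lower (0 and 0), and of 332 tested genes 13 were lower and 6 higher. Medians were then 0.34 for pigment, 0.093 for lineage and -0.48 for migration genes, and Ece1 reversed to 1.24. With the marker share pooled over telogen and UVB, 10 of 572 tested features were lower (8 and 2) and 1 gene-near feature was higher. With nuclei above 3 times the median left out, 3 of 229 tested features were lower, 0 of them distal, and the migration median was 0.0452. Thinned to 500 open features, 1 of 2 tested features was lower (1 gene-near, 0 distal), and of 246 tested genes 7 were lower and 6 higher. The migration median was then 0.11, and Klf2 reversed to 1.71. Without telogen tag number 1, and with gene-near taken as within 5 kb, 0 distal features were lower. With telogen tag numbers 8 to 10 only, 8 of 94 tested features were lower (8 gene-near, 0 distal). Of 1320 tested genes 9 were higher, and the Wnt median was -0.21. At 3-fold, 0 features were lower.

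A further 4 alternatives were chosen after seeing the data. Filtered by level in anagen, 1 feature was tested and 0 were lower (0 and 0), and of 2002 tested genes 20 were lower and 46 higher. Without telogen tag number 10, 0 of 3 tested features were lower (0 and 0), and of 515 tested genes 11 were lower and 13 higher. Medians were then -0.33 for immediate early, 0.33 for cAMP and -0.17 for housekeeping genes. Without telogen tag numbers 8 and 9, 0 of 42 tested features were lower (0 and 0), 26 of 1097 tested genes were lower and the migration median was 0.16. With only nuclei that had a Dct call, 3 of 24 tested features were lower (2 gene-near), and of 776 tested genes 17 were lower and 10 higher. Medians were then -0.12 for pigment, 0.11 for lineage and -0.69 for migration genes. The lineage median was above 0 in 16 of 16 settings (0.093 to 0.51). The cause was not tested. Settings that leave out nuclei also leave fewer telogen calls by construction, while the anagen filter keeps all of them and changes which features and genes were tested. No paired analysis was possible because each condition is 1 sample and the technical replicates of UVB are not separated in the matrix. At 50 telogen calls, ratios of 1.4-fold higher or 1.35-fold lower are the smallest that could leave out 1.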

Other observations

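Myh6, the gene of a cardiac myosin heavy chain, had 19 calls in the kept telogen nuclei and 10 in the kept UVB nuclei, levels of 211 and 5.36. The nuclei not kept stood at 208 in telogen and 8.98 in UVB. In anagen, which shares a library with telogen, the kept nuclei stood at 164 and the rest at 569. The 19 telogen calls came from 11 of the 76 nuclei. Its mean level was under the filter, so it was not among the tested genes.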
